A study of Mus musculus with 9 samples.

Results

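The 38 genes described here encode the glycolytic pathway, its transporters and regulators, and the oxygen-sensing system with genes it induces. A gene was measured where the array had a probe set annotated to that gene symbol alone, and where there were several the one with the highest mean over the 9 arrays was read. This gave 35 of the 38 genes, out of 19938 genes measured in all. Gapdh was covered only by probe sets that list several symbols and is given apart, and Gpi1 and Eno1 are not analysed here. The genes fall into 4 transporters, 13 measured glycolytic enzymes, 6 regulators of flux, 4 genes of the HIF system and 8 genes induced by hypoxia.

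The arrays compare 2 kinds of cells from the back skin of mice at postnatal day 4. The 4 SKP arrays (replicates 3, 4, 5 and 6) hold skin-derived precursor cells grown in culture at primary passage and collected as spheres. The 5 sorted arrays (replicates 2, 16, 17, 18 and 20) hold cells isolated from Sox2:EGFP reporter mice by flow sorting for EGFP and against surface CD34, and placed straight into RNAlater. The labels do not state the strain of the mice, nor whether those used for the SKPs carried the reporter. Each array is a separate preparation, per the design text. The groups differ in cell identity, in culture and in the sort at once, and these cannot be told apart.

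Glycolysis breaks glucose down to pyruvate, which is reduced to lactate or enters mitochondria through pyruvate dehydrogenase. When oxygen is low, the prolyl hydroxylases encoded by the Egln genes stop marking the HIF alpha subunits for destruction. HIF then binds a short DNA element and induces many glycolytic genes, pyruvate dehydrogenase kinases and a set of other targets. In developing skin the dermal papilla and the dermal fibroblasts are separate mesenchymal populations, and SKPs are dermal precursor cells grown in culture.

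In SKPs the transporter genes Slc2a1 and Slc16a1, the enzyme genes Aldoa, Tpi1, Pgk1, Pgam1 and Eno2 and the collagen prolyl hydroxylase genes P4ha1 and P4ha2 were higher than in the sorted cells. The pyruvate dehydrogenase kinase genes Pdk1, Pdk2 and Pdk4, the flux regulator Pfkfb3, the HIF subunit gene Epas1 and the HIF target Ndrg1 were lower. The enzyme genes Pfkp and Ldhb and the HIF hydroxylase genes Egln1 and Egln3 were lower as well. Both the enzymes and the hypoxia-induced genes thus had members on both sides. Of the 35 measured genes 9 were called higher and 10 lower at an adjusted p under 0.05. That is 54.3% called, against 37% of all genes (20.2% higher and 16.9% lower). In 18 of the 35 the arrays of the groups did not overlap, against 34% of all genes. By at least 2-fold, 7 were higher and 6 lower, against 5.46% and 6.25% of all genes. After centring each array on its median the split was 13 higher and 9 lower, or 59.1% of calls higher against 47.4% without centring. The median log2 difference over all genes moved as well, from 0.07 to 0.14. The share of all genes called after centring is not given here. In bulk RNA of this kind, fewer cells of a type and less RNA per cell cannot be told apart.

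**Figure D1:**
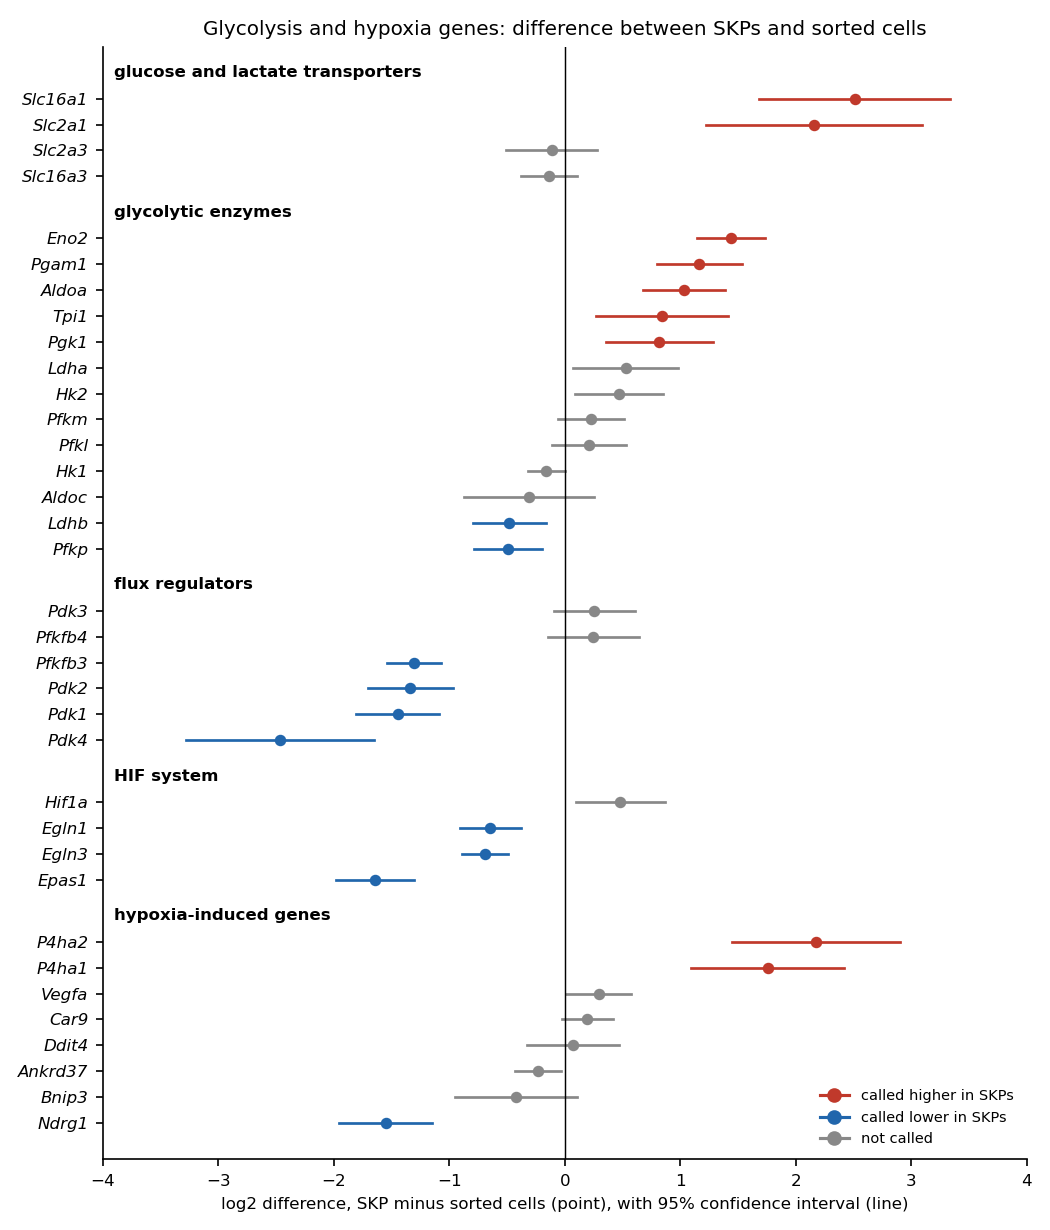
Log2 difference between SKPs and sorted cells (SKP minus sorted, horizontal axis) for the 35 measured genes, grouped by role, with 95% confidence intervals as lines. Red points were called higher in SKPs, blue points lower and grey points were not called, and the blue points lie mainly among the flux regulators and the HIF system, where 4 of 6 and 3 of 4 genes were lower.

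Sox2, the gene reported by the sorted EGFP, was at 8.24 to 9.25 on the sorted arrays and 5.78 to 6.41 in SKPs. Cd34, selected against in the sort, was at 10.19 and 10.27 on sorted replicates 2 and 20 and at 7.31 to 7.82 on the other 3. In SKPs it was at 11.14 to 11.62, so replicates 2 and 20 lay nearer to SKPs, against the sort for cells lacking surface CD34. These 2 arrays also stood apart in marker lists. The 11 hair shaft genes averaged 7.44 and 7.10 there, next to 10.13 to 10.35 in the remaining sorted arrays, with SKPs at 5.88 to 6.22. There the 11 fibroblast genes averaged 11.04 and 11.19, while the remaining sorted arrays gave 10.004 to 10.03 and SKPs 11.31 to 11.36. For 9 proliferation genes the averages were 9.75 and 9.89, next to 8.10 to 8.43 in the remaining sorted arrays and 9.24 to 9.59 in SKPs. For 15 dermal papilla genes they were 10.37 and 9.78, next to 11.34 to 11.52, with SKPs at 7.12 to 7.29. For 14 keratinocyte genes they were 9.92 and 11.34, next to 9.51 to 9.70, with SKPs at 6.71 to 6.99. Schwann cell genes (8.68 to 9.37, SKPs 6.49 to 6.93) and melanocyte genes (8.52 to 9.12, SKPs 6.97 to 7.22) were higher on average on every sorted array. The sorted cells also held the higher level of 10 immediate early genes on every array (10.79 to 11.33, SKPs 8.09 to 8.51). Of 13 myeloid genes 12 were higher in SKPs and 0 lower, with a list mean of 6.92 to 8.54 in SKPs (highest on replicate 5) and 5.88 to 6.25 in the sorted cells. Without sorted replicates 2 and 20, 15 of the 35 genes were called higher and 12 lower. The share of all genes called without these arrays is not given here, so the larger count is no result about these genes. The part of these other cell types in the results was not tested.

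Among the transporters, the widely expressed glucose carrier Slc2a1 and the lactate carrier Slc16a1 were higher in SKPs. Slc2a1 stood at 10.76, 10.38, 10.99 and 10.88 on the log2 scale on SKP replicates 3, 4, 5 and 6. On sorted replicates 2, 16, 17, 18 and 20 it was at 8.97, 7.89, 8.08, 7.92 and 10.08, and every list of values below keeps these orders. Sorted replicate 20 came closest to SKPs and replicate 2 came next, with no overlap between the groups. The log2 difference was 2.16 (SE 0.42, 4.47-fold, adjusted p = 0.00243), and without sorted replicates 2 and 20 it was 6.90-fold.

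Slc16a1, which carries lactate and pyruvate across the membrane in either direction, was at 11.56, 11.39, 11.70 and 11.43 in SKPs and at 9.73, 8.50, 8.52, 8.19 and 10.10 in the sorted cells. The groups did not overlap, and the same 2 sorted arrays were again the highest of their group. The difference was 5.69-fold (log2 2.51, SE 0.37, adjusted p = 4.53e-04), or 8.66-fold without those arrays. Their paralogues did not share this difference. Slc2a3, the glucose carrier typical of neurons, had a log2 difference of -0.11 (95% interval -0.51 to 0.28, adjusted p = 0.658), but was called lower without sorted replicates 2 and 20 (-0.36, adjusted p = 0.0237) and with array weights (-0.35, adjusted p = 0.0269). Slc16a3, the lactate exporter of strongly glycolytic cells, had one of -0.14 (-0.38 to 0.10, adjusted p = 0.356).

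Of the 13 measured enzymes 5 were higher and 2 lower (53.8% called, against 37% of all genes), with a median log2 difference of 0.47 against 0.07 over all genes. The 5 higher members act at or below the aldolase step, as do Aldoc and Ldha, which were not called, and Ldhb, which was lower. At the steps above it, no hexokinase or phosphofructokinase gene was called higher on the probe set used. With sorted replicates 2 and 20 left out, 8 of the 13 enzymes were higher, the additions being Hk2, Pfkl and Ldha. The share over all genes in that fit is not given here.

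Hexokinase traps glucose in the cell as its phosphate. Hk2, the inducible form, was at 8.41, 8.32, 8.57 and 8.32 in SKPs and at 7.76, 7.72, 7.74, 7.89 and 8.57 in the sorted cells. Only sorted replicate 20 reached the SKP range, and the log2 difference of 0.47 missed the threshold (adjusted p = 0.0546). It passed without that array (0.63, adjusted p = 2.70e-04), and also after quantile normalization (adjusted p = 0.0402), median centring (0.0264), with array weights (2.35e-04) and on removal of the genes with a mean level under 6.31 (0.0432). For Hk1, the widespread form, the 2 probe sets disagreed. The one with the higher mean, which the annotation ties to 1 accession, gave -0.16 (adjusted p = 0.107), and was called lower after quantile normalization (-0.32, adjusted p = 0.00171) and with array weights (adjusted p = 0.0384). The other, with 8 accessions, gave 0.42 (adjusted p = 0.00105), at 8.64, 8.54, 8.67 and 8.66 in SKPs against 8.26, 8.14, 8.30, 8.13 and 8.19. No direction is given for Hk1.

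Phosphofructokinase commits the sugar to glycolysis. Its platelet-type gene Pfkp was 1.41-fold lower in SKPs, at 8.38, 8.15, 8.72 and 8.33 against 9.05, 8.90, 9.05, 8.61 and 8.81 (adjusted p = 0.0140). SKP replicate 5 lay above sorted replicate 18, so the groups overlapped. The liver-type gene Pfkl (0.21, 95% interval -0.11 to 0.53) and the muscle-type gene Pfkm (0.22, -0.06 to 0.51) were not called.

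Aldoa, the aldolase of most tissues, opened the run of higher enzymes. It was at 11.76, 11.62, 11.96 and 11.85 in SKPs and at 10.96, 10.57, 10.64, 10.42 and 11.22 in the sorted cells, a 2.05-fold difference (log2 1.04, SE 0.16, adjusted p = 5.75e-04). The groups did not overlap. Aldoc, its brain form, had a log2 difference of -0.31 (-0.87 to 0.25, adjusted p = 0.378), with sorted replicate 20 at 8.16 and the other sorted arrays at 6.77 to 7.07.

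Tpi1, which interconverts the triose phosphates, was at 11.16, 11.01, 11.39 and 11.13 in SKPs and at 10.72, 9.98, 9.92, 9.89 and 11.14 in the sorted cells. Sorted replicate 20 lay within the SKP range. Its 1.80-fold difference (adjusted p = 0.0256) was the least stable of the 5 calls, holding in 3 of the 9 fits that leave out 1 array (adjusted p 0.00152 to 0.0719). It was lost without SKP replicate 3, 5 or 6 or sorted replicate 16, 17 or 18, and without both sorted replicates 2 and 20 it was 2.37-fold (adjusted p = 1.02e-05).

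Pgk1, an enzyme that makes ATP, was at 11.59, 11.37, 11.98 and 11.71 in SKPs against 11.22, 10.48, 10.63, 10.53 and 11.35, or 1.77-fold higher (adjusted p = 0.0104). The lowest SKP array exceeded the highest sorted array by a narrow margin. Pgam1, the mutase that follows, was at 9.90, 9.69, 10.29 and 10.02 against 8.98, 8.64, 8.67, 8.54 and 9.23, or 2.24-fold higher (adjusted p = 3.44e-04). Here the groups were well separated. Both genes had 3 probe sets, among which the difference was 0.82 to 0.84 for Pgk1 and 1.16 to 1.20 for Pgam1, and some of these held identical values, so they are not independent measurements.

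Eno2, the enolase of neurons, had the lowest adjusted p among the 13 enzymes. It was at 8.63, 8.47, 8.75 and 8.83 in SKPs and at 7.13, 7.47, 7.27, 7.41 and 6.86 in the sorted cells. Sorted replicates 2 and 20 were the lowest of their group here, and the highest for the other 4 higher enzymes. The difference was 2.72-fold (log2 1.44, SE 0.13, adjusted p = 2.01e-05), with a range of 2.55 to 2.84 over the fits that leave out 1 array.

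The lactate dehydrogenase genes had differences of opposite sign, and only that of Ldhb was called. Ldha, the form that favours lactate production, was at 11.91, 11.92, 12.14 and 11.93 in SKPs and at 11.96, 11.11, 11.15, 11.10 and 11.92 in the sorted cells. Sorted replicates 2 and 20 lay within the SKP range and the other 3 below it. The log2 difference of 0.53 was not called (adjusted p = 0.0685). It was called on median centring (0.60, adjusted p = 0.0446), with array weights (adjusted p = 1.54e-04) and without sorted replicate 2 (0.0202) or 20 (0.0200), and without both it was 0.86 (1.81-fold, adjusted p = 3.07e-05).

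Ldhb, the form of oxidative tissues, was 1.39-fold lower in SKPs, at 7.52, 7.73, 7.72 and 7.41 against 8.29, 7.84, 7.98, 7.82 and 8.43 (adjusted p = 0.0241). The groups did not overlap, but the call was lost without SKP replicate 3 or 6 or sorted replicate 2 (adjusted p up to 0.0763) and on median centring (0.0510). Its second probe set gave -0.44 (adjusted p = 0.00875). The within-array difference of Ldha over Ldhb was 4.19 to 4.53 in SKPs and 3.17 to 3.66 in the sorted cells, a shift of 1.01 (exact permutation test, two-sided, p = 0.0159, adjusted p = 0.0286). Exact permutation tests of such pairs were added after the values were seen, and 0.0159 is the smallest p they can give.

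Gapdh, often used as a reference gene, was covered by 25 probe sets that each list 4 to 8 symbols, among them pseudogenes. Their differences lay between 0.36 and 0.54 with a median of 0.44, and 24 of 25 were called higher when each annotated probe set was tested on its own (adjusted p 0.0322 to 0.0511). They held 20 distinct sets of values, so they do not count as 25 measurements. On every one of them sorted replicate 20 lay within the SKP range, so the groups overlapped. Sorted replicate 2 lay just below that range, and sorted replicates 16, 17 and 18 lay further below. The probe set with the largest difference was at 13.02, 12.87, 13.16 and 13.09 in SKPs. In the sorted cells it was at 12.85, 12.19, 12.26, 12.22 and 12.94.

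**Figure D2:**
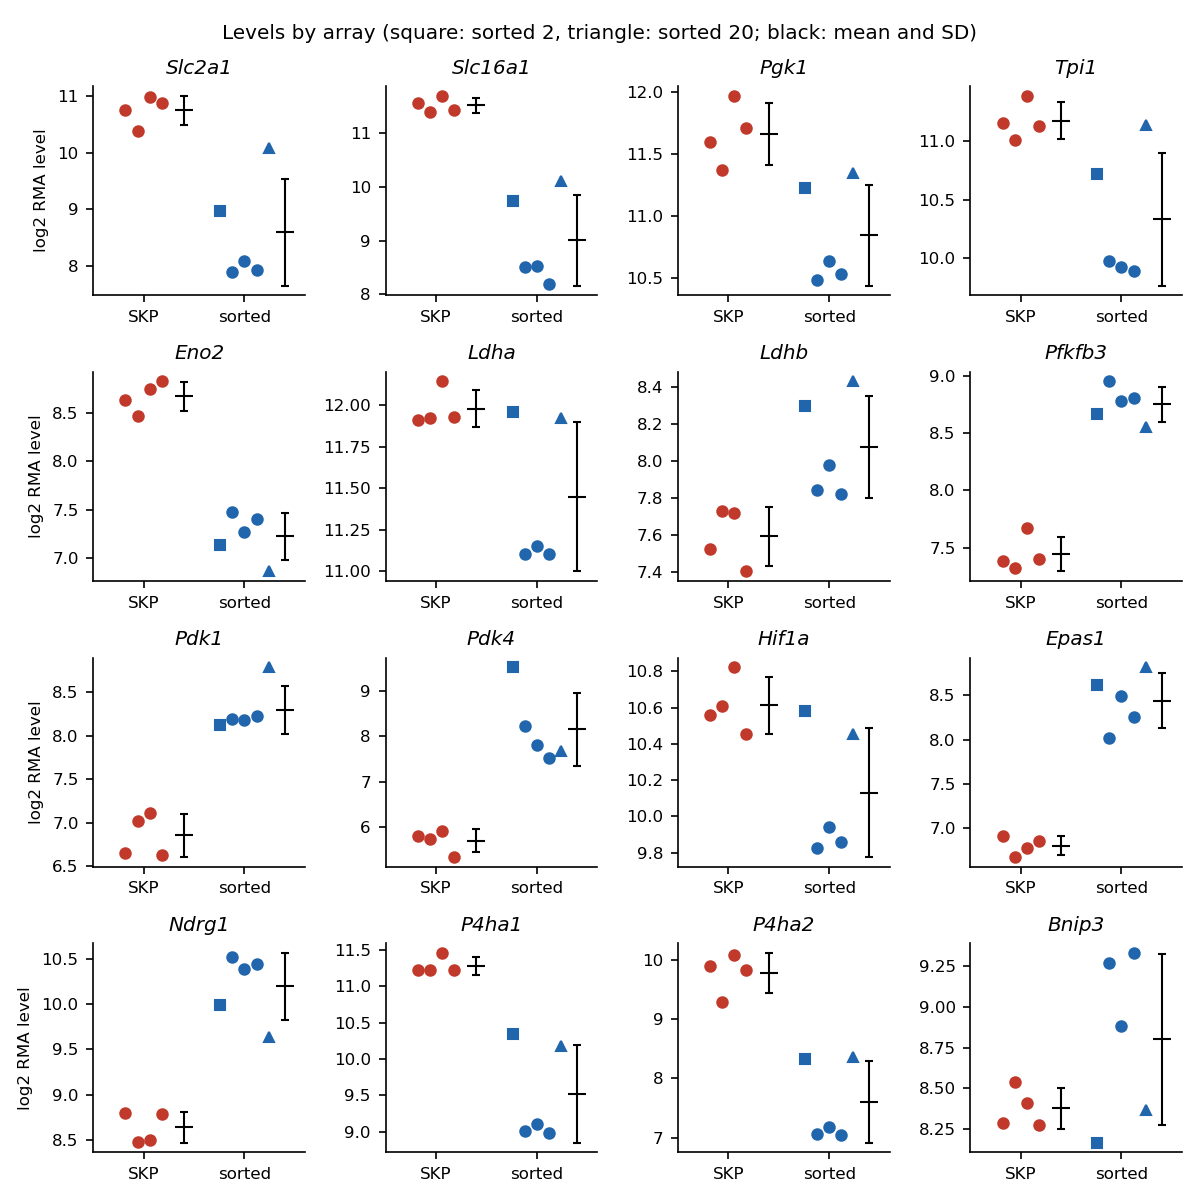
Log2 RMA level (vertical axis, its own range in each panel) of 16 genes on the 4 SKP arrays (red) and the 5 sorted arrays (blue), with mean and SD in black. Squares and triangles mark sorted replicates 2 and 20. Both lie nearer to SKPs than the other sorted arrays for Slc2a1, Slc16a1, Pgk1, Tpi1, Ldha, Pfkfb3, Hif1a, Ndrg1, Bnip3, P4ha1 and P4ha2. They do not both do so for Eno2, Epas1, Ldhb, Pdk1 or Pdk4.

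The regulators of flux fell or were not called. Of 6 measured, 4 were lower in SKPs and 0 higher, all 4 by more than 2-fold (6.25% of all genes were), with a median log2 difference of -1.32. Pfkfb3 makes the strongest activator of phosphofructokinase. It was at 7.39, 7.33, 7.67 and 7.40 in SKPs and at 8.66, 8.95, 8.78, 8.80 and 8.55 in the sorted cells. The arrays of each group lay close together, and the 2.47-fold difference (log2 -1.30, SE 0.10, adjusted p = 8.21e-06) changed little when any array was left out (2.38 to 2.60). Its paralogue Pfkfb4 had a log2 difference of 0.25 (-0.15 to 0.64, adjusted p = 0.311).

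Pyruvate dehydrogenase kinases switch off the entry of pyruvate into mitochondria, and 3 of the 4 genes were lower in SKPs. Pdk1, a well-known HIF target, was at 6.65, 7.02, 7.11 and 6.63 in SKPs and at 8.12, 8.19, 8.18, 8.23 and 8.79 in the sorted cells. It was 2.73-fold lower (adjusted p = 7.25e-05), with no overlap. Pdk2, the most widespread of the family, was at 7.17, 7.13, 6.93 and 7.08 against 8.12, 8.71, 8.49, 8.77 and 7.99, or 2.53-fold lower (adjusted p = 1.42e-04).

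Pdk4, induced by fasting and glucocorticoids, was at 5.80, 5.73, 5.92 and 5.33 in SKPs and at 9.54, 8.23, 7.81, 7.53 and 7.68 in the sorted cells. Sorted replicate 2 was the highest. The computed fold was 5.52 (log2 -2.46, SE 0.36, adjusted p = 4.59e-04). The SKP values are under 6.31, the limit used for low levels, which marks the lowest 33.3% of genes by mean. Background was not measured, and signals this low may not stand clear of it, so this fold is approximate. Pdk3 did not share the fall, at 9.56, 9.85, 9.83 and 9.57 against 9.84, 9.27, 9.30, 9.11 and 9.71 (log2 0.26, adjusted p = 0.240). Without sorted replicates 2 and 20 Pdk3 was 1.39-fold higher (adjusted p = 0.00430).

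In the HIF system 3 of 4 genes were lower (16.9% of all genes were) and 0 higher, with a median of -0.67. Hif1a, the broadly expressed alpha subunit, was at 10.56, 10.61, 10.82 and 10.45 in SKPs and at 10.58, 9.83, 9.94, 9.86 and 10.45 in the sorted cells. Sorted replicate 2 lay within the SKP range and replicate 20 at its lower end, and the log2 difference of 0.48 was not called (adjusted p = 0.0529). It was called after median centring (adjusted p = 0.0349), on removal of those low genes (0.0417), with array weights (4.00e-04) and without sorted replicate 2 (0.0133) or 20 (0.0245). Without both it was 1.67-fold higher (adjusted p = 2.27e-04).

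Epas1 encodes the other main HIF alpha subunit, prominent in endothelial and some mesenchymal cells. It was at 6.91, 6.67, 6.77 and 6.85 in SKPs and at 8.62, 8.01, 8.49, 8.26 and 8.82 in the sorted cells, or 3.12-fold lower (log2 -1.64, SE 0.15, adjusted p = 2.11e-05). The groups were far apart. The 10 endothelial genes averaged 6.29 to 6.61 in SKPs and 6.31 to 6.43 on sorted replicates 16, 17 and 18, but 7.08 on replicate 2 and 7.59 on replicate 20. Without the latter arrays Epas1 was 2.74-fold lower (adjusted p = 1.38e-05). The 10 pericyte and smooth muscle genes averaged 9.29 to 9.81 on the sorted arrays and 7.57 to 7.68 in SKPs. The part of these cells in the Epas1 difference was not tested. The within-array difference of Hif1a over Epas1 was 3.60 to 4.05 in SKPs and 1.45 to 1.96 in the sorted cells, a shift of 2.12 (exact permutation test, p = 0.0159, adjusted p = 0.0286).

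Both oxygen-sensing hydroxylases were lower. Egln1, the main HIF hydroxylase, was at 8.37, 8.42, 8.61 and 8.41 against 9.33, 8.96, 8.94, 8.91 and 9.34, or 1.56-fold lower (adjusted p = 0.00165). Egln3, itself a HIF target, was at 6.67, 6.76, 6.73 and 6.85 against 7.21, 7.59, 7.46, 7.52 and 7.41, or 1.61-fold lower (adjusted p = 2.07e-04). Neither overlapped between groups, and both kept their call in all 9 fits that leave out 1 array. Their shift relative to each other was 0.05 (exact permutation test, p = 0.825).

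The hypoxia-induced genes were called at about the share of all genes. Of 8, 2 were higher, 1 was lower and 5 were not called (37.5% called against 37% of all genes). Their median was 0.13 against 0.07 over all genes, so the count is no result about this list. The 2 higher members were P4ha1 and P4ha2, the catalytic subunits of collagen prolyl hydroxylase, an enzyme that stabilises the collagen triple helix. P4ha1 was at 11.22, 11.22, 11.46 and 11.22 in SKPs and at 10.34, 9.01, 9.10, 8.98 and 10.18 in the sorted cells, or 3.38-fold higher (log2 1.76, SE 0.30, adjusted p = 0.00107). P4ha2 was at 9.90, 9.29, 10.09 and 9.84 against 8.34, 7.07, 7.18, 7.05 and 8.37, or 4.52-fold higher (log2 2.18, SE 0.33, adjusted p = 4.91e-04). In both genes sorted replicates 2 and 20 lay between SKPs and the other sorted arrays, and without them the folds were 4.75 and 6.40.

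Ndrg1, induced by hypoxia, differentiation and stress, went the opposite way. It was at 8.80, 8.49, 8.50 and 8.78 in SKPs and at 9.99, 10.52, 10.38, 10.44 and 9.64 in the sorted cells. The difference was 2.93-fold lower (log2 -1.55, SE 0.18, adjusted p = 9.75e-05), without overlap. Sorted replicates 2 and 20 were the nearest to SKPs.

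The other 5 were not called in all arrays. Vegfa, the angiogenic factor, was at 9.21 to 9.37 in SKPs and 8.59 to 9.18 in the sorted cells, without overlap (log2 0.29, adjusted p = 0.0975). Of the alternatives, only median centring made it pass (adjusted p = 0.0436). Bnip3, which directs the removal of mitochondria, was at 8.29, 8.54, 8.41 and 8.27 against 8.16, 9.27, 8.88, 9.33 and 8.36 (log2 -0.42, adjusted p = 0.194). Sorted replicates 2 and 20 were the lowest of their group, close to SKPs, and without them Bnip3 was 1.72-fold lower (adjusted p = 7.33e-04). It also passed without replicate 2 alone (-0.58, adjusted p = 0.0484) and with array weights (adjusted p = 0.00161).

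Ddit4, an inhibitor of mTOR signalling, was at 9.05 to 9.12 in SKPs and 8.68 to 9.67 in the sorted cells (log2 0.07, -0.33 to 0.47, adjusted p = 0.787). The sign of Ddit4 turned without sorted replicate 17 (-0.01). It passed as higher without replicate 20 (0.24, adjusted p = 0.0491) and with array weights (adjusted p = 0.0345). Without both sorted replicates 2 and 20 it was also called higher (0.29, adjusted p = 0.00969). Ankrd37, an ankyrin repeat gene, was at 6.22 to 6.58 against 6.56 to 6.77 (log2 -0.23, adjusted p = 0.0683), and it was called lower without SKP replicate 6 (-0.29, adjusted p = 0.0439). Car9, a carbonic anhydrase almost silent in normal oxygen, was at 5.79 to 6.02 and 5.42 to 5.82, also under 6.31, so its difference cannot be read.

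**Figure D3:**
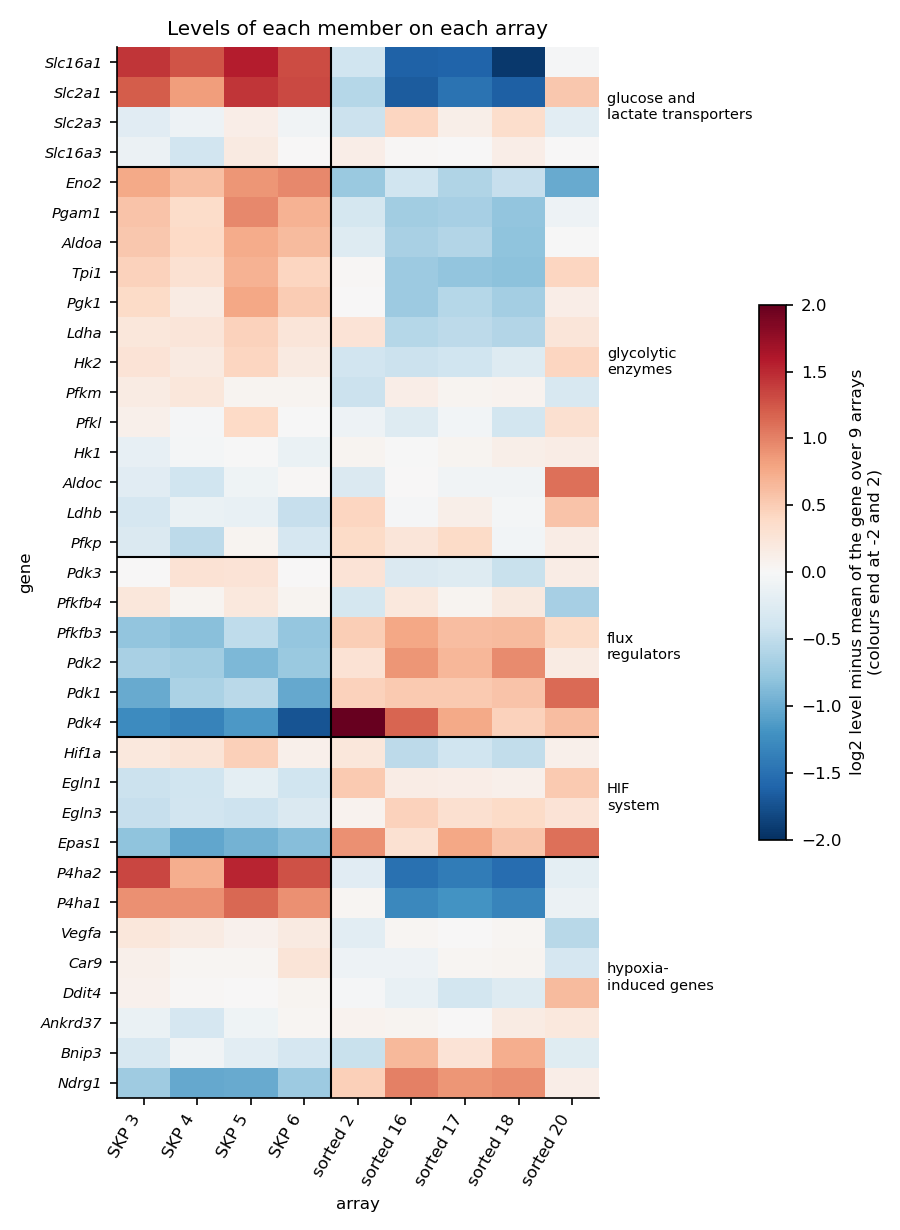
Log2 level of each of the 35 genes (rows, by role) on each array (columns), minus the gene's mean over the 9 arrays, with colours ending at -2 and 2. The flux regulators Pfkfb3, Pdk1, Pdk2 and Pdk4 and the HIF genes Epas1, Egln1 and Egln3 are blue on all SKP arrays, and sorted replicates 2 and 20 are paler than the other sorted arrays in Slc2a1, Slc16a1, P4ha1 and P4ha2.

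Members of 1 family were compared directly by the difference between 2 paralogues on each array, in 18 pairs that share genes. With 126 regroupings of the 9 arrays the smallest p the exact permutation test can give is 0.0159. This comparison was added after the values were seen. In 14 of 18 pairs the shift between groups had an adjusted p under 0.05. The share among pairs of other genes was not computed, and 34% of all single genes did not overlap between groups. The count is therefore no result about these families. Slc2a1 shifted against Slc2a3 by 2.27, Slc16a1 against Slc16a3 by 2.65, Aldoa against Aldoc by 1.34 and Pfkfb3 against Pfkfb4 by -1.55 (each adjusted p = 0.0286). Pdk3 shifted against Pdk4 by about 2.72 (adjusted p = 0.0286), a size that is approximate because Pdk4 in SKPs is under 6.31. Pdk1 and Pdk2 shifted against Pdk3 by -1.70 and -1.59 (each adjusted p = 0.0286). The exact permutation test did not pass for Pdk1 and Pdk2 (-0.11, p = 0.778), Pfkl and Pfkm (-0.01, p = 1.0) or Egln1 and Egln3. P4ha1 and P4ha2 missed the threshold (-0.42, adjusted p = 0.0571). The pair of Hk1 and Hk2 passed (adjusted p = 0.0408) but rests on the disputed probe set of Hk1.

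The core element that HIF binds is ACGTG or GCGTG. The former was searched on both strands, as ACGTG and CACGT, in the 250 bases before each annotated start (RefSeq, GRCm38.p6). Of the 35 measured genes 32 matched a promoter entry, and 22 of these (68.8%) held ACGTG in at least 1 window, against 20.9% of the 15614 genes tested on the arrays that have an entry. It overlaps the E-box CACGTG, which other factors bind and which 6.02% of all windows hold. Genes called higher held it in 7 of 9, genes called lower in 4 of 8 and genes not called in 11 of 15. All 7 hypoxia-induced genes with an entry held it, 2 of them called higher and 5 not called. The genes were listed for glycolysis and hypoxia, and HIF induces many such genes, so their higher share is no result of these arrays. A match is a description of letters and does not show that a factor binds there.

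Promoter stretches of 3 genes called higher (Slc2a1, Pgk1, P4ha2) and 3 called lower (Pfkfb3, Egln1, Egln3) are shown because the same letters stand before genes that moved in opposite directions. Each is 250 bases long, 5′ to 3′ on the gene's strand, ends just before the start, and has the matches in capitals. They lie at chr4:119108495-119108744 (+), chrX:106186850-106187099 (+), chr11:54100674-54100923 (+), chr2:11553930-11554179 (-), chr8:124949255-124949504 (-) and chr12:54203875-54204124 (-), in that order. For Pfkfb3 the first listed of 2 annotated starts is shown, with 1 match. Both windows of Pfkfb3 held ACGTG, and the one not shown held 2 matches.
Slc2a1: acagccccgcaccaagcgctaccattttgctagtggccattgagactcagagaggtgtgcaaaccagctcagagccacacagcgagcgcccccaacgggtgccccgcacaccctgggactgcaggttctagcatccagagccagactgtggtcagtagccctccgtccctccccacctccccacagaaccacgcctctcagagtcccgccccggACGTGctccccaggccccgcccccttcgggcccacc
Pgk1: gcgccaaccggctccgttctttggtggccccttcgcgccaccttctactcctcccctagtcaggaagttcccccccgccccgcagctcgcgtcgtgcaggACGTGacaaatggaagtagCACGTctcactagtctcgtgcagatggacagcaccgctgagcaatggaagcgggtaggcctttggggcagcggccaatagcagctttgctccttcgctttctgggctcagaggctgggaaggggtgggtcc
P4ha2: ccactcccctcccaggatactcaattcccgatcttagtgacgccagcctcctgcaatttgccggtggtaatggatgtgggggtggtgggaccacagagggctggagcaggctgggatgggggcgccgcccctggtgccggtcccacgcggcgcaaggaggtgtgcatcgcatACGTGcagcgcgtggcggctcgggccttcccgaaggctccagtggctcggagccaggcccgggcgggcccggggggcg
Pfkfb3: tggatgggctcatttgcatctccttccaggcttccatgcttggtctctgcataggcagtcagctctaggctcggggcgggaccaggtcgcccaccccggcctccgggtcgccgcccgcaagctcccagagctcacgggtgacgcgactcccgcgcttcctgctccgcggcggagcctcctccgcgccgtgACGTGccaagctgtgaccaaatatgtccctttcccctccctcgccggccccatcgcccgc
Egln1: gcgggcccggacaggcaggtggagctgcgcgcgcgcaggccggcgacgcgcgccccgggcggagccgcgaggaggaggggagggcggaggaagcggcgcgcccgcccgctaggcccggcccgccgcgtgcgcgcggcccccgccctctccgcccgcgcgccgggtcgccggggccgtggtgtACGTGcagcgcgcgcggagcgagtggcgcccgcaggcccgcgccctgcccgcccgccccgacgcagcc
Egln3: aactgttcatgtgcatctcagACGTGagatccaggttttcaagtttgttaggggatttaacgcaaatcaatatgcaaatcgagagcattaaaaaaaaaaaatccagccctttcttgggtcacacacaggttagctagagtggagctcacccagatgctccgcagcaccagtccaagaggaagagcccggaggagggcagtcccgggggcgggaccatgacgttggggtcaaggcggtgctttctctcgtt
The match began 36 bases before the start in Slc2a1, 78 in P4ha2, 60 in Pfkfb3, 68 in Egln1 and 229 in Egln3. Pgk1 held 2, on opposite strands, beginning 150 and 131 bases before the start.

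Other genes of these pathways came from lists of textbook members. Of 68 measured, 21 were higher, 16 were lower and the median log2 difference was 0.12. Over all genes 37% were called, 20.2% higher and 16.9% lower, and this holds as the background of each list that follows. In glycolysis 5 of 13 were higher and 2 lower. Pkm, which encodes pyruvate kinase of the last step, was 2.66-fold higher, at 11.73 ± 0.24 (SD, n = 4) against 10.31 ± 0.37 (n = 5, adjusted p = 2.52e-04). Its second probe set gave 1.40 on the log2 scale. The aldose mutarotase gene Galm was 2.23-fold higher, while Pfkfb2, a relative of Pfkfb3, was 1.32-fold lower and the mitochondrial glycerol phosphate dehydrogenase gene Gpd2 1.29-fold lower (adjusted p = 0.0195), a call lost without sorted replicates 2 and 20 (0.0527) and on median centring (0.0630).

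At the entry of pyruvate into mitochondria 4 of 8 genes were higher and 1 lower. The lower one was Pdp1, a phosphatase that reverses the action of the kinases, at 8.71 ± 0.12 against 9.87 ± 0.12, or 2.23-fold lower (adjusted p = 7.29e-06). The kinase genes Pdk1, Pdk2 and Pdk4, whose products act against it, fell as well. Its relative Pdp2 was 1.64-fold higher and Dld, a subunit of the complex, 1.46-fold higher.

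For gluconeogenesis, which runs the pathway backwards, 3 of 7 were higher and 2 lower. Pck2, the mitochondrial form of its first committed enzyme, was 2.50-fold higher and the pyruvate carboxylase gene Pcx 2.16-fold higher. Fbp1, which reverses phosphofructokinase, was 4.49-fold lower, at 5.70 ± 0.20 against 7.87 ± 1.04 (adjusted p = 0.00389), and 7.32-fold lower without sorted replicates 2 and 20. Its SKP level is under 6.31, so this fold is approximate. Fbp2 was 1.31-fold lower (adjusted p = 0.0325), a call lost without both arrays (0.0509) and on median centring (0.0727), and its SKP level too is under 6.31.

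Within the pentose phosphate pathway 1 of 6 was higher and 1 lower. They were Pgd (1.5-fold higher, adjusted p = 0.0472), whose call held in 2 of the 9 fits that leave out 1 array and was lost without both (0.0841), after quantile normalization (0.101) and with array weights (0.0501), and Rpia (1.72-fold lower, adjusted p = 0.0157).

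Among 8 other HIF regulators 2 were higher and 2 lower. Arnt2, a partner subunit, was 3.01-fold lower (adjusted p = 1.93e-04) and the inhibitory subunit gene Hif3a 1.71-fold lower. Cited2, which competes with HIF for a coactivator, was 1.52-fold higher and the further hydroxylase gene Egln2 1.39-fold higher, unlike Egln1 and Egln3.

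Among 26 other genes linked to hypoxia 6 were higher and 8 lower (median -0.07). Hmox1, the haem oxygenase also induced by oxidative stress, was 6.51-fold higher, at 10.54 ± 0.10 against 7.84 ± 0.53 (adjusted p = 1.52e-05). Plod1, a collagen lysyl hydroxylase, was 2.60-fold higher. Cxcr4, the chemokine receptor, was 13.0-fold lower, at 8.40 ± 0.45 against 12.10 ± 0.21 (adjusted p = 5.93e-07), and the carbonic anhydrase gene Car12 was about 2.93-fold lower (adjusted p = 0.0126), or 2.00-fold without sorted replicates 2 and 20. Its SKP level is under 6.31, so its fold is approximate as well.

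**Figure D4:**
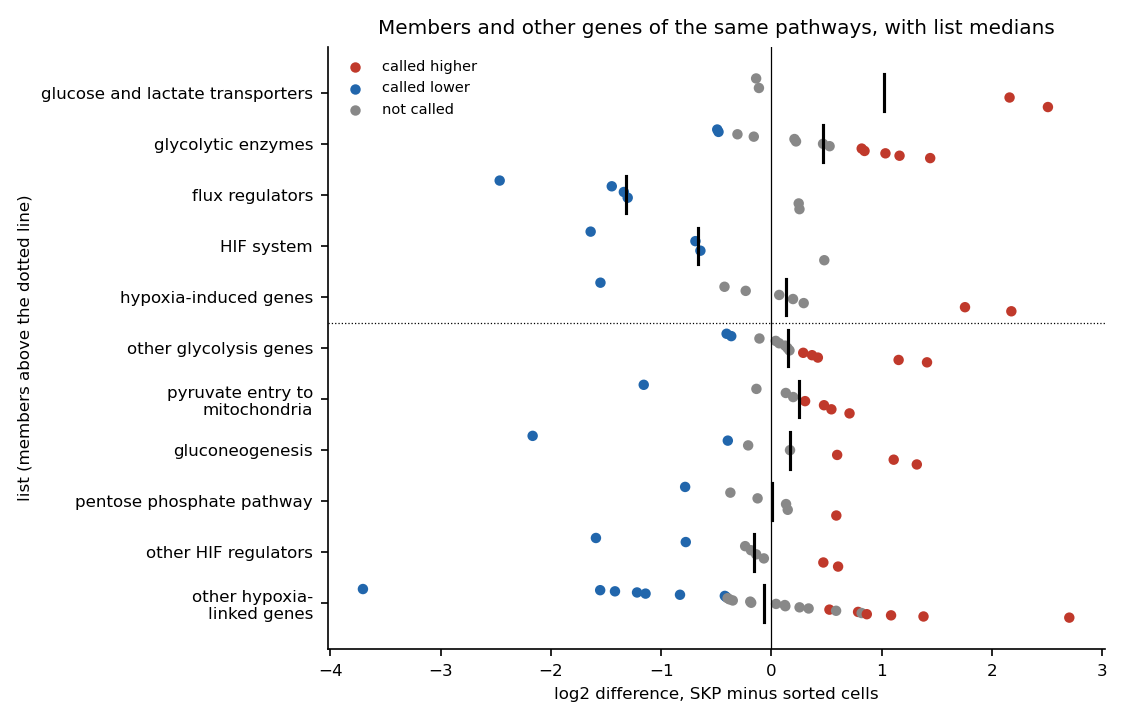
Log2 difference between SKPs and sorted cells (horizontal axis) for each gene of the 5 role groups (above the dotted line) and of 6 further pathway lists, with list medians as black bars. Red and blue points were called higher and lower, and the medians run from -1.32 in the flux regulators to 1.02 in the transporters.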

How the data were processed

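Total RNA of 9 preparations, 4 of SKPs and 5 of sorted cells, was hybridised to Affymetrix arrays of the type Mouse Gene 1.0 ST. The deposited values are log2 levels per probe set, made by the authors with RMA, and Affymetrix Expression Console and limma are also named, per the submitters' processing notes. Versions, settings and genome build are not given in the sources used here. RMA equalises the distribution of all arrays, so differences are relative to the other genes (array medians 7.15 to 7.30). No detection calls were used, and the number of arrays limits the precision.

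Of 35556 probe sets, 21789 list 1 gene symbol and 1621 several. Groups were compared over 19938 genes with limma 3.58.1 in R 4.3.3 (lmFit and eBayes, two-sided), and "higher", "lower" or "called" mean an adjusted p under 0.05 (Benjamini-Hochberg, across the whole set of genes). Exact permutation tests used scipy 1.17.1 and figures matplotlib 3.10.9. In simulated data with 200 genes changed, 44% of 50 genes shifted by log2 0.585 were called, 72% at 1, 94% at 2 and 100% at 4. The simulation gave both groups the same spread, and 7386 genes were called in the real data. These shares may therefore not hold for this comparison.

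The genes, lists and tests were chosen with earlier results of these data known. All 38 genes are named, and of the other lists the 2 highest and 2 lowest called. Hk3 was named in addition, after its values were seen. Alternatives were quantile normalization, median centring, removal of the lowest 33.3% of genes, a mean over probe sets, array weights, eBayes with trend and robust, stricter limits and leaving out arrays. Every probe set tested on its own was added after the data were seen.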

Additional observations from a re-analysis of the deposited data

Results flagged for a closer look

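In 5 of 70 group checks (7.14%) the highest array stood apart from the rest of its group, where chance alone flags about 1 in 20. On sorted replicate 20, Hk2 was at 8.57 (next highest 7.89), Aldoc at 8.16 (next 7.07) and Pdk1 at 8.79 (next 8.23). On SKP replicate 5, Ldha was at 12.14 (next 11.93) and P4ha1 at 11.46 (next 11.22). SKP replicate 5 also had the highest mean of the 13 myeloid marker genes (8.54, against 6.92 to 7.88 on the other SKP arrays), and the part of these cells in its values was not tested.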

How the results depend on the processing

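No paired analysis was possible because the groups share no replicate numbers. Fitting with trend and robust kept the direction and call of all 35 genes, and quantile normalization those of 33. Among the 35 genes the count called higher, 9, was 15 with array weights and without both sorted arrays 2 and 20. It was 8 to 13 with 1 array left out. The count called lower, 10, was 13 with array weights, 12 without both arrays and 6 at 2-fold or more. It was 9 to 10 with 1 array left out. The overall median of 0.20 was 0.05869 with array weights and 0.04108 without both arrays (0.12 to 0.22 with 1 left out). Enzymes called higher, 5, were 8 with array weights and without both arrays, 3 at an adjusted p under 0.01 and at 2-fold, and 4 to 7 with 1 left out. Enzymes called lower, 2, were 1 on median centring, 0 at an adjusted p under 0.01 and at 2-fold, and 1 to 2 with 1 left out. Hypoxia-induced genes called lower, 1, were 2 with array weights and without both arrays, and 1 to 2 with 1 left out. Those called higher, 2, were 3 on median centring, with array weights and without both arrays, and 2 to 3 with 1 left out. Of the other pathway genes, 7 were higher at 2-fold and 8 lower (9 lower at an adjusted p under 0.01), and their median of 0.12 was 0.22 without both arrays (0.03239 to 0.14 with 1 left out). Signs turned for Hk1 (0.13 as a mean over probe sets, 0.42 on its other probe set), Ddit4 (-0.0108 without sorted replicate 17, and up to 0.238 without sorted replicate 20) and Pfkfb4 (-0.01631 without both arrays). Array weights were 0.19 and 0.30 for sorted replicates 20 and 2 and 0.52 to 2.65 for the others. Apart from the stricter limits, the cause of these changes was not tested. The share of all genes called in the alternative fits is not given, so a change in these counts is no result about these genes. Signals under 6.31 limit what can be said of Car9, Fbp2 and Hk3 and of the size of the Pdk4, Fbp1 and Car12 differences.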
